A study of Mus musculus with 2 samples.

Results

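The 3p arms of the mouse microRNAs (miRNAs) numbered miR-6896 to miR-7094 were examined on both arrays of the study. They were chosen by name, as every non-control miRNA of the array whose number lay in that range and whose name ended in -3p, and they were 199 of the 1881 miRNAs on the array, with 414 of its 4415 probes. The study asked how exosomes of bone marrow mesenchymal stem cells (BMSCs) act on lung cancer cells under hypoxia. The arrays used here profiled blood exosomes of tumour-bearing mice. The study looked for miRNAs shared between that profile and the exosomes of cultured BMSCs. In the LLC group, 1000000 luciferase-labelled Lewis lung carcinoma (LLC) cells, an established mouse lung cancer line, were injected under the skin of mice. In the MSC+LLC group the same injection also held mouse BMSCs. Per the methods, the mice were 6-week-old C57BL/6 females, and both groups carried the luciferase-labelled tumour cells. Blood was taken when the mean tumour volume reached 200 mm3 and exosomes, small vesicles shed by cells, were isolated from it. The labels call the fluid serum and the methods call it plasma. Each group was measured on 1 array, and neither the number of mice behind an array nor the number of BMSCs injected is given in the sources used here. No group has a replicate, so no test between the groups was possible and no p-value is given. The errors below are SDs over the repeated spots of a probe and cover technical spread only. Both arrays lay on 1 slide, so position on the slide and group cannot be told apart. All miRNAs in serum exosomes come from an unknown mixture of cells, so fewer vesicles of a kind and less RNA per vesicle cannot be told apart.

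Mirtrons are short introns that, once spliced out and debranched, fold into hairpins that Dicer can cut without a prior cut by Drosha. In such a hairpin the 5p arm starts at or near the splice donor and the 3p arm ends at or near the splice acceptor. The 3p arm therefore tends to carry the pyrimidine-rich tract that lies before an acceptor and to end in AG, while the 5p arm tends to be rich in G. A miRNA recognises its targets mainly through the seed, its bases 2 to 8. The run of numbers studied here is known for many such hairpins, and the sequences were set against that description. Entries of RefSeq (GRCm38.p6) on a chromosome that was left out were not matched, so the counts here are of matched sequences only. A mature sequence was matched for 175 of the 199 members. Of these, 136 (77.7%) ended in AG and 118 (67.4%) in CAG, against 56 of 500 matched other 3p arms ending in AG (11.2%) and 12 of 176 matched 5p arms of the same numbers (6.82%). The median share of pyrimidines was 72.0% (quartiles 66.7% and 77.3%) in the members, 54.5% in the other 3p arms and 31.8% in the 5p partners. In the 5p partners G was the most frequent base, with a median of 43.7%. The matching gave 172 hairpins for 170 members, 2 of which have 2 hairpins each. Of the hairpins, 162 ended in AG, 23 started with GU, and 19 did both. The member lay at the very 3′ end of 127 of these hairpins, and 170 hairpins (98.8%) lay within the bounds of a protein-coding gene. An AG at the end was thus present in most matched members, and a GU at the start in few of the matched hairpins.

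The plot of pyrimidine shares sets the members against their partners and the other 3p arms.

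**Figure D1:**
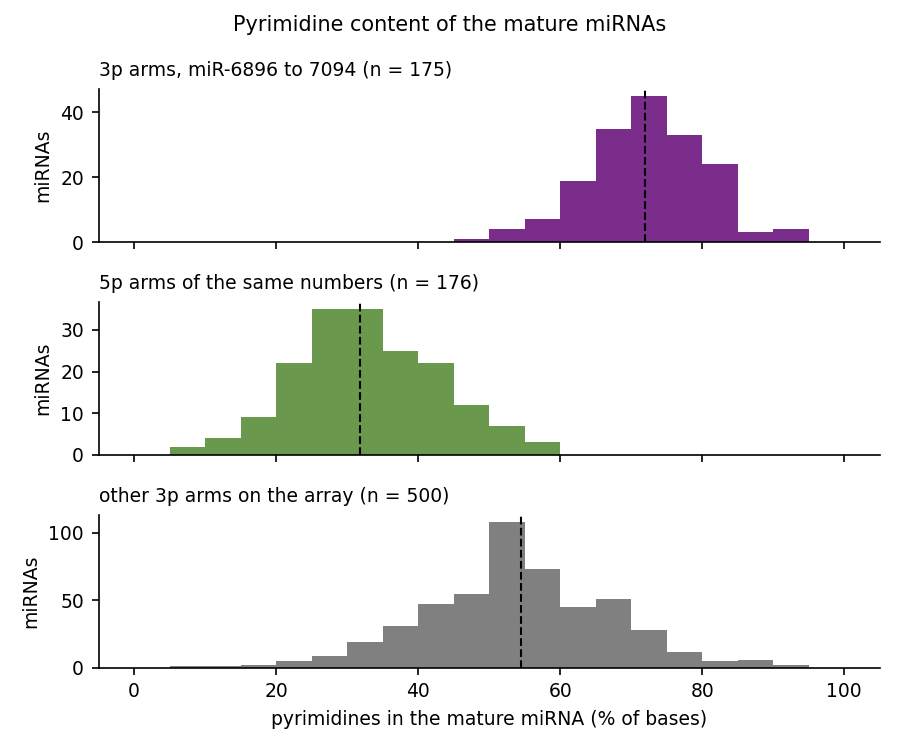
Share of pyrimidines (C and U, in percent, x axis) in the mature sequences of the 175 matched members, the 176 matched 5p partners and the 500 matched other 3p arms, as the number of miRNAs (y axis). The medians are 72.0%, 31.8% and 54.5%.

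The sequences that carry the results are those of the members detected on an array, because they show what kind of 3p arm gave signal. They are printed 5′ to 3′ from RefSeq (GRCm38.p6) with the seed in capitals, beside the protein-coding gene whose bounds contain the hairpin, except for miR-7047-3p, which is given by its mature sequence alone. Whether the hairpin lies in an intron of that gene and on its strand was not determined here. The first group was detected on the MSC+LLC array, and the second on the LLC array alone. The last line is miR-6995-3p, which the study's text names. miR-6923-3p is named without a sequence.
miR-7011-3p (chr3:88440879-88440899, minus strand, Sema4a): uCUGCUUCccuccuccucuag
miR-7047-3p: uCACCCUCacccuuccuccuucc
miR-7066-3p (chr8:70102524-70102546, minus strand, Ncan): uCUACCCAuugccugccucccag
miR-7082-3p (chr9:21075499-21075520, minus strand, Raver1): gCCCCCCUugcugucugucucc
miR-6937-3p (chr12:28679367-28679389, plus strand, Adi1): uCACAGGUucccccuugcacuag
miR-7045-3p (chr6:125097066-125097086, plus strand, Chd4): uCUCCCCCcucccccgcacag
miR-7022-3p (chr4:148146937-148146958, minus strand, Fbxo6): aCAAGCCUgaccucugccccca
miR-7046-3p (chr7:24970010-24970031, minus strand, Rabac1): uGAACCACccaucccccuacag
miR-7036b-3p (chr5:34574192-34574213, plus strand, Add1): uUCCUGGUgggccucggggucc
miR-6897-3p (chr1:36144252-36144272, minus strand, Uggt1): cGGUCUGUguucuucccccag
miR-6995-3p (chr19:47273519-47273539, minus strand, Sh3pxd2a): uGUGUCCCcuuccucucacag

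No pair of these sequences shared a seed. Roles of some of the host genes shown are given as background, and whether the host genes are related was not tested. Sema4a encodes a semaphorin, Ncan the matrix proteoglycan neurocan, Chd4 a chromatin remodeller of the NuRD complex, Add1 the cytoskeletal protein adducin and Uggt1 a folding sensor of the endoplasmic reticulum. Pyrimidines made up 91.3% of miR-7047-3p, which holds no G, and 81.8% of miR-7082-3p. Others held fewer, with 65.2% in miR-6937-3p, 63.6% in both miR-7022-3p and miR-7046-3p, and 59.1% in miR-7036b-3p. miR-7036b-3p stood apart in its share of G, 40.9%. Over the whole set, the 175 matched members held 168 different seeds, and 6 seeds were shared by 13 members. The seed CACCCUG was shared by miR-7018-3p, miR-7023-3p and miR-7068-3p, none of which was detected on either array.

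A hairpin shows both arms in place. In that of miR-7082, a member measured with 3 probes, the purine-rich 5p arm is followed by the loop and by the 3p arm, given in capitals, and the hairpin closes with the bases ag.
Mir7082 (chr9:21075497-21075588, minus strand): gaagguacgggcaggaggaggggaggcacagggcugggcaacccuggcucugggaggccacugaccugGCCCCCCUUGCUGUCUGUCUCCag

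Few members gave signal in exosomes of either group. Detection of a probe required the scanner software's mark of well above background on over 50% of the spots, and a miRNA needed at least 1 such probe. On the LLC array 8 of 199 members were detected, or 4.02% (exact 95% binomial interval 1.75% to 7.77%), beside 26.7% of all 1881 miRNAs. On the MSC+LLC array 5 members were detected, or 2.51% (0.821% to 5.77%), beside 13.7% of all miRNAs. These intervals cover counting error over miRNAs only. The 5p partners were detected more often on the same arrays. Of 200 5p partners, 75 were detected on the LLC array, or 37.5% (30.8% to 44.6%), and 23 on the MSC+LLC array, or 11.5% (7.43% to 16.8%). Among the 586 other 3p arms, the shares were 25.8% (22.3% to 29.5%) and 16.4% (13.5% to 19.6%). On both arrays the interval of the members lay below those of the 5p partners and of the other 3p arms. The other 3p arms did not share the low rate of the members.

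**Figure D2:**
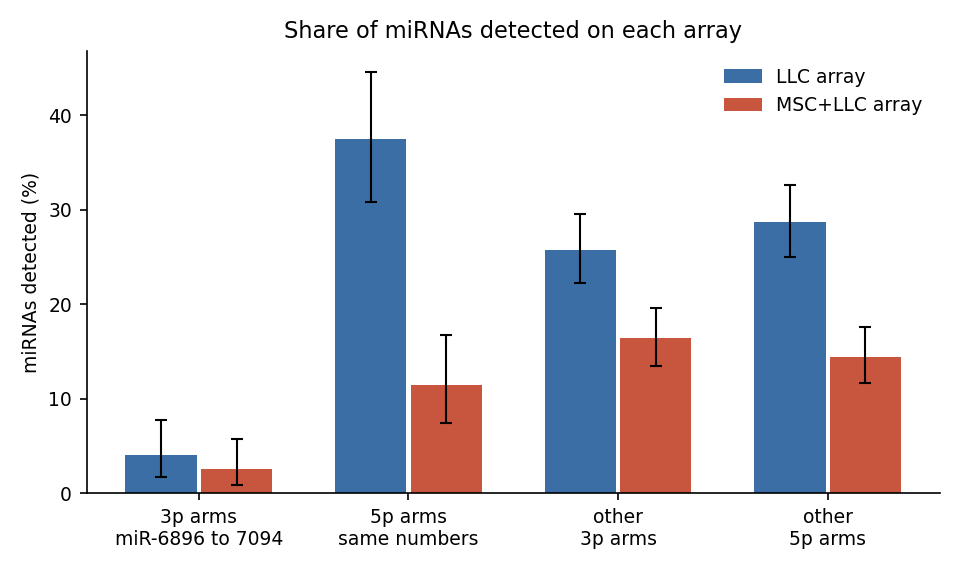
Percent of miRNAs detected (y axis) on the LLC and MSC+LLC arrays among the members, their 5p partners, the other 3p arms and the other 5p arms, with exact 95% binomial intervals as error bars. The members sit at 4.02% and 2.51%, below every other list on both arrays.

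Only 2 members were detected on both arrays, which was 25% of those in LLC and 40% of those in MSC+LLC. Over all miRNAs, the 240 shared were 47.8% of those detected in LLC and 93.0% of those in MSC+LLC. A further 6 were detected on the LLC array alone and 3 on the MSC+LLC array alone, and 188 were detected on neither. Among the 5p partners, 23 were detected on both arrays, 52 on the LLC array alone and 0 on the MSC+LLC array alone. Over the whole array 18 miRNAs were detected on the MSC+LLC array alone, and 3 of them were members. Within the 198 hairpins with both arms on the array, 70 showed the 5p arm alone on the LLC array, 4 the 3p arm alone, 4 both arms and 120 neither. On the MSC+LLC array the counts were 20, 2, 3 and 173. The 5p arm had the brighter best probe in 150 of the 198 hairpins in LLC and in 101 in MSC+LLC.

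Most members had signals around 0 after background subtraction, where no level can be read. Values are background-subtracted intensity units as deposited, without scaling between the arrays, unless a ratio is named. Taking the brightest probe of each member, the signals on the LLC array ran from -5.29 to 64.7 with a median of -0.500 (quartiles -2.15 and 3.26), and 112 members lay below 0. On the MSC+LLC array they ran from -4.41 to 27.1 with a median of 0.704 (quartiles -0.645 and 3.10), and 77 lay below 0. The spots of the negative control probe with the most copies averaged 1.07 ± 3.46 (SD, n = 392 spots) in LLC and 2.93 ± 2.97 (n = 385) in MSC+LLC, so the typical member was no brighter than a spot with no target. The mean of those spots plus 3 SDs was passed by 20 members in LLC and by 10 in MSC+LLC. The share of all miRNAs that passed it was not counted. In LLC that probe had the lowest mean of the 7 negative control probes, which reached 4.39, so this cut was a lenient one there. The brightest member on the LLC array, miR-6937-3p at 64.7, was far dimmer than the brightest miRNA there at 67741. The brightest 5p partner was miR-7047-5p at 10435 in LLC and miR-6931-5p at 1812 in MSC+LLC. Probe chemistry differs between sequences, so these levels are not copy numbers and do not order the miRNAs by abundance.

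The limit between detected and undetected members was narrow. On the LLC array the dimmest detected member was miR-6923-3p at 21.4, and the brightest undetected member was miR-7047-3p at 20.5. On the MSC+LLC array these were miR-7011-3p at 20.7 and miR-7017-3p at 18.4. The lowest signal of any detected probe was 20.9 in LLC and 18.8 in MSC+LLC, and a detected probe of miR-6897-3p lay just above the former. Every probe of the miRNA was detected for 7 of the 8 members in LLC and for 1 of the 5, miR-7047-3p, in MSC+LLC.

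**Figure D3:**
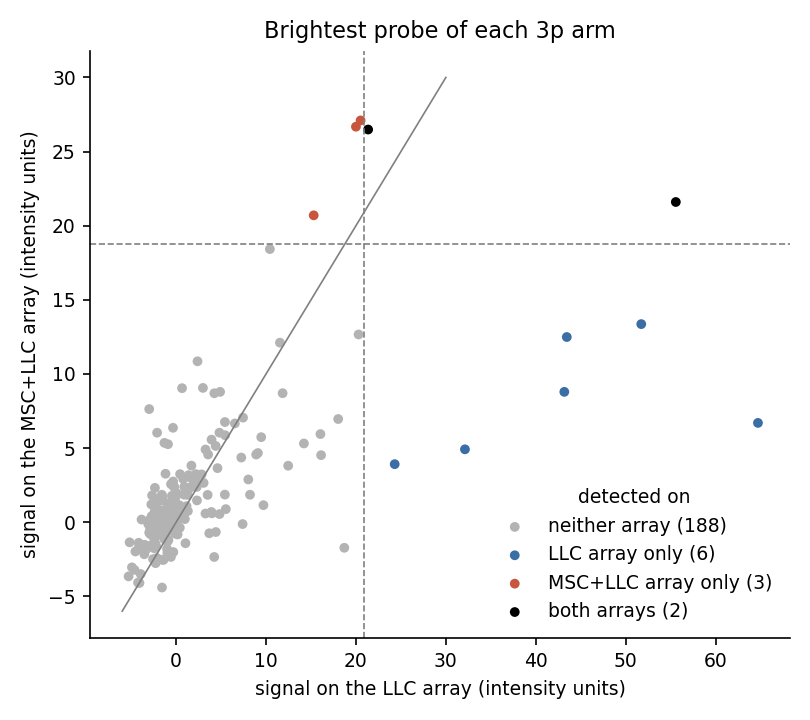
Signal of the brightest probe of each of the 199 members on the LLC array (x axis) and on the MSC+LLC array (y axis), in background-subtracted intensity units on linear axes, with dashed lines at the lowest detected signal of each array (20.9 and 18.8). The 188 undetected members crowd around 0, and the 11 detected members lie beyond at least 1 of the lines.

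All 5 members detected on the MSC+LLC array were dim. For miR-6923-3p the probe means were 21.4 ± 4.36 (SD, n = 15 spots) in LLC and 26.5 ± 4.96 (n = 15) in MSC+LLC, where 53.3% and 100% of the spots were well above background. Its other probe read 11.3 ± 4.66 and 12.7 ± 3.90 and was detected on neither. Both probes were thus as bright or slightly brighter on the MSC+LLC array.

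For miR-7047-3p, a probe read 20.5 ± 2.45 (n = 13) in LLC and 27.1 ± 2.91 (n = 15) in MSC+LLC, and the other read 17.5 ± 4.57 and 25.5 ± 4.78. Both probes were detected on the MSC+LLC array alone, at 1.32 and 1.46 times their LLC signal. For miR-7066-3p, a probe read 20.0 ± 4.88 in LLC and 26.7 ± 4.59 in MSC+LLC, and its other probe stayed near background at 8.30 and 8.33. For miR-7011-3p the probes read 15.3 ± 3.08 and 14.0 ± 4.48 on the LLC array against 20.7 ± 2.29 and 19.0 ± 3.83 on the MSC+LLC array. All 3 members were under the LLC detection limit, and no probe differed between the arrays by more than 3 SDs over its spots. These SDs describe single spots and not the error of a probe mean.

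The remaining member of the 5, miR-7082-3p, was dimmer on the MSC+LLC array before scaling. Its 3 probes read 55.6 ± 6.29, 47.4 ± 2.63 and 38.4 ± 4.97 in LLC and 21.6 ± 3.58, 19.4 ± 3.78 and 17.2 ± 4.19 in MSC+LLC. All 3 were detected on the LLC array, and only the brightest passed the detection rule on the MSC+LLC array. The spots of the 2 arrays differed for every probe by several SDs, with LLC the brighter by 2.57-, 2.45- and 2.23-fold.

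The members detected on the LLC array alone were all dimmer and under the detection limit on the MSC+LLC array. miR-6937-3p, the brightest, read 64.7 ± 6.43 and 54.8 ± 6.60 in LLC and 6.70 and 6.44 in MSC+LLC. miR-7045-3p read 51.7 ± 6.18 and 48.6 ± 4.73 against 13.4 and 11.8, and miR-7046-3p read 43.2 ± 4.66 and 32.4 ± 3.68 against 8.79 and 6.83. miR-7022-3p read 43.5 ± 4.45 and 37.4 ± 4.21 against 10.8 and 12.5. The probes of these 4 members were 3.00- to 9.66-fold dimmer on the MSC+LLC array, and all were undetected there. miR-7036b-3p read 32.1 ± 3.90 and 31.5 ± 3.67 against 4.92 and 4.13. miR-6897-3p, the dimmest of this group, read 24.3 ± 5.06 and 20.9 ± 4.95 against 2.77 and 3.91. Both probes of each of these 6 members behaved alike, which is a check within a miRNA and not a replicate of the condition.

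**Figure D4:**
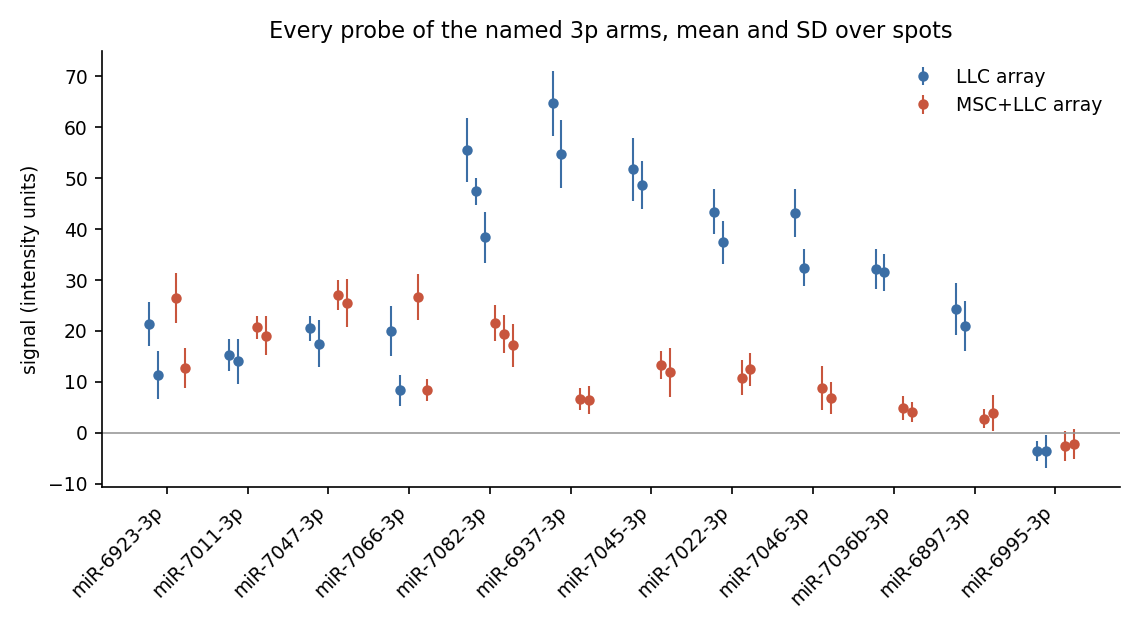
Mean signal of each probe, with SD over its spots, on the LLC and MSC+LLC arrays (intensity units, background-subtracted, unscaled) for the 11 members detected on either array and for miR-6995-3p. miR-6923-3p, miR-7011-3p, miR-7047-3p and miR-7066-3p were level or higher on the MSC+LLC array, and the other 7 detected members were lower.

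miR-6995-3p was detected on neither array. The study's text names it as decreased in exosomes of cultured BMSCs under hypoxia against normoxia. That comparison used other samples, so the values here do not bear on it. Its probes read -3.54 and -3.61 in LLC and -2.54 and -2.16 in MSC+LLC, below 0 throughout. Its 5p partner read 1377 ± 55.5 and 1340 in LLC and 78.2 and 79.3 in MSC+LLC. The 2 arms of the hairpin thus stood on opposite sides of the detection limit on both arrays.

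To compare groups, the overall brightness of the arrays must be set. Over the 405 probes that passed detection on each array, the 75th percentile was 2883 in LLC and 250.3 in MSC+LLC, 11.5-fold apart, and each array was divided by its own. Scaling raises every MSC+LLC over LLC ratio by 3.53 on the log2 scale. A member whose raw signal was equal on both arrays therefore reads as higher in MSC+LLC, and all statements of direction below are relative to that scale. The scale also limits what can be read. A miRNA at the detection limit of both arrays would be given a ratio of 10.3-fold higher in MSC+LLC, and a miRNA detected on the LLC array alone needs a signal above 216.5 to be called lower. None of the members reached that signal, whereas 26 of the 5p partners did. Of the 6 members detected on the LLC array alone, none could therefore be given a bound. No member passed 64.7 on the LLC array, and the lowest detected signal on the MSC+LLC array was 18.8. On this scale every member detected on the MSC+LLC array therefore had to read at least 2-fold higher.

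After this scaling, both members measured on the 2 arrays were higher in MSC+LLC. miR-6923-3p had a log2 ratio of 3.84 (SD 0.40 over spots), or 14.3-fold, and miR-7082-3p had 2.16 (SD 0.29), or 4.48-fold, on the 1 probe detected on both arrays. Before scaling the same log2 ratios were 0.31 and -1.36, so miR-7082-3p was higher in MSC+LLC on the main scale and lower without scaling, with the 4 spike-ins, and with either kind of spike-in alone. The members at least 2-fold higher were 2 of 2, beside 27.1% of the 240 miRNAs measured on both arrays, and those at least 2-fold lower were 0 of 2, beside 11.2%. Without scaling, 0 of 2 were at least 2-fold higher, beside 3.33% of the 240 miRNAs, and 1 was at least 2-fold lower, beside 90.4%. Of the 240 miRNAs, 11 had a higher ratio than miR-6923-3p and 28 a higher ratio than miR-7082-3p. The median log2 ratio was 3.00 over these 2 members, -0.045 over the 23 5p partners and 0.15 over the 240 miRNAs. The 2 of 2 on the main scale was fixed by detection and the scale, so its distance from 27.1% is not a result. With only 2 measured members these are descriptions.

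For the 3 members detected on the MSC+LLC array alone, only a lower bound of the change can be given, from the MSC+LLC signal and the higher of the LLC signal and the LLC detection limit, both after scaling. miR-7011-3p was at least 11.4-fold higher, miR-7047-3p at least 14.5-fold higher and miR-7066-3p at least 14.7-fold higher in MSC+LLC. Across all 18 miRNAs of this kind the bounds ran from 10.9 to 62.4-fold, so those of the members sat in the lower part of a range that starts close to the limit of 10.3-fold. Counting these bounds, 5 of the 11 members detected on either array were at least 2-fold higher, beside 16.0% of the 520 miRNAs detected on either array, and 0 were at least 2-fold lower, beside 5.38%. Scaled by all 4 spike-ins, 0 members were at least 2-fold higher and 1 lower, beside 3.65% and 60.4% of the 520 miRNAs. Without scaling 0 were higher and 4 lower, beside 2.12% and 74.6%. None of the 6 members detected on the LLC array alone was bright enough for a lower call. On the main scale the 5 higher and 0 lower were thus fixed by detection, and are not a result on the members.

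The 5p partners of these 5 members were brighter than the 3p arms on the LLC array in 4 hairpins and undetected in the other. Levels here are of the brightest probe, and scaled ratios are means over the probes detected on both arrays. miR-7047-5p was at 10435 ± 1136 in LLC and 853.1 ± 72.2 in MSC+LLC, 12.2-fold lower, while the raw signal of its 3p arm was slightly higher. The other probe of miR-7047-5p read 1807 and 98.1, 18.4-fold lower. The scaled log2 ratio of miR-7047-5p over both probes was -0.38 (SD 0.13). miR-7011-5p was at 906.9 ± 41.8 and 86.2 ± 7.99, a scaled log2 ratio of 0.22. miR-7082-5p was at 1935 ± 82.9 and 168.1 ± 2.18, 11.5-fold lower before scaling, while miR-7082-3p was 2.57-fold lower. Its scaled log2 ratio was -0.045. miR-7066-5p was at 182.1 ± 19.2 in LLC and 10.3 ± 2.88, undetected, in MSC+LLC. miR-6923-5p was detected on neither array, with brightest-probe signals of 5.53 and 0.941. These hairpins were chosen because their 3p arm was detected on the dimmer MSC+LLC array, and a 3p arm this dim could not have been among them after a drop of 11.5-fold, so the contrast between the arms is a description of the choice and not a result.

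**Figure D5:**
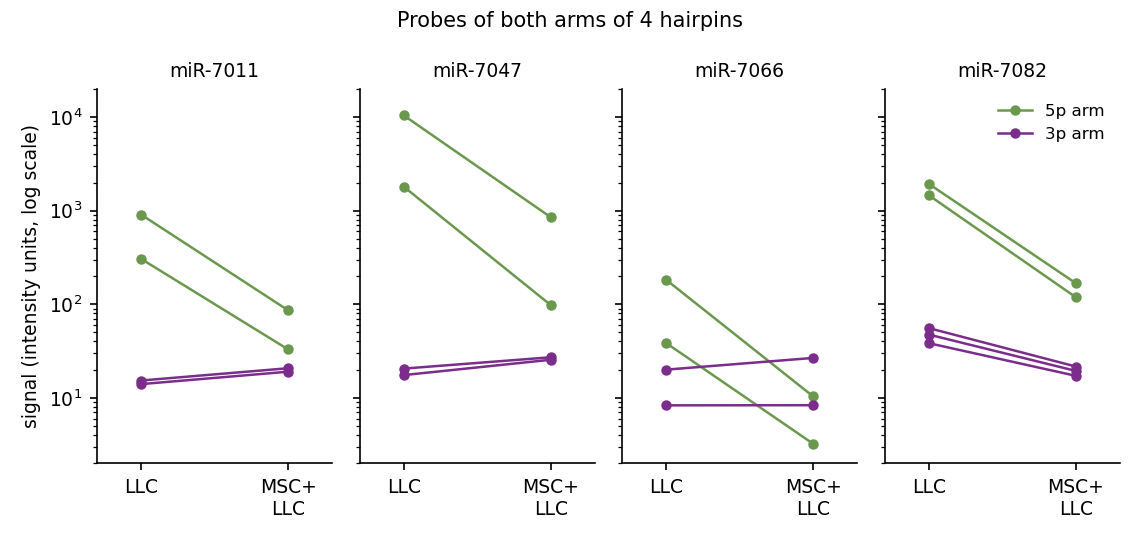
Signal of each probe of the 3p and 5p arms of miR-7011, miR-7047, miR-7066 and miR-7082 on the LLC and MSC+LLC arrays (y axis: background-subtracted intensity units, unscaled, on a log axis). The 5p arms drop steeply from LLC to MSC+LLC (miR-7047-5p from 10435 to 853.1), and the 3p arms lie between 8.30 and 55.6 on the LLC array with a smaller drop or none, as their detection on the MSC+LLC array required.

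Among the members detected on the LLC array alone, the 5p arm of miR-6937 was detected on both arrays at 3186 and 145.5, with a scaled log2 ratio of -0.93 (SD 0.26). Those of miR-7045 and miR-7046 were detected on both arrays with scaled log2 ratios of 0.33 and 0.31, and those of miR-7022, miR-7036b and miR-6897 were detected on neither. A detected 3p arm thus occurred with and without a detected 5p arm.

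The same question was put to signals under the detection rule, using spots marked positive and significant, a more lenient mark by which 40 of the 199 members (20.1%) were seen on each array, beside 43.8% of all miRNAs in LLC and 27.7% in MSC+LLC. A total of 27 members were seen on both arrays by it, 67.5% of each set, whereas the 482 shared over all miRNAs were 58.6% of those seen in LLC and 92.5% of those in MSC+LLC. Over these 27 the median unscaled log2 ratio was -0.47 (quartiles -1.43 and 0.16), which is 1.38-fold lower in MSC+LLC, and 9 (33.3%) were brighter on the MSC+LLC array. The 51 5p partners that passed the same mark on both arrays, a separate selection from the partners of the 27, had a median of -3.41, or 10.7-fold lower, and 1 (1.96%) was brighter. Over the 480 miRNAs with a probe that passed on both arrays the median was -3.02, or 8.08-fold lower, and 46 (9.58%) were brighter. These medians cannot be set against each other, because the brightest LLC probes of the 27 members ran only from 4.40 to 64.7 and a member had to stay above background on the dimmer array to be counted, while the 5p partners reach far higher signals. The 7 negative control probes had mean signals of 1.07 to 4.39 in LLC and of 2.87 to 5.49 in MSC+LLC, and each of the 7 was brighter on the latter. The part of the background in the members' ratios was not tested.

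Among the members detected on neither array, the best-probe signals of the 2 arrays had r = 0.62 across 188 miRNAs, which share the probes, the slide and the base composition. The 10 detected members with a sequence had a median GC of 61.4% and 48.9% C, against 54.5% and 40.9% in the 165 undetected ones, and 6 of 10 (60.0%) ended in AG against 130 of 165 (78.8%). With 10 sequences these shares are descriptions.

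Markers of blood, liver and stromal cells were dimmer on the MSC+LLC array as well. The summed signal of 5 erythroid miRNAs was 116884 in LLC and 19533 in MSC+LLC, with all 5 detected on both. For 3 hepatocyte miRNAs the sums were 5396 and 465.4 (3 and 2 detected, miR-194-5p undetected on the MSC+LLC array), and for 5 leukocyte and platelet miRNAs 22835 and 2128 (5 and 3 detected, miR-150-5p and miR-155-5p undetected on the MSC+LLC array). For 5 mesenchymal stromal miRNAs the sums were 2122 and 308.0 (4 and 3 detected, miR-145a-5p undetected on both and miR-143-3p on the MSC+LLC array). Over the 5, 2, 3 and 3 of these miRNAs measured on both arrays, the median log2 ratios were -0.39, 0.23, -0.51 and 0.82 after scaling. Before scaling they were -3.92, -3.29, -4.04 and -2.70. Sums and median ratios are different summaries and need not move alike. The part of these marker miRNAs in the results on the 3p arms was not tested.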

How the data were processed

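Exosomal RNA of the LLC and MSC+LLC groups was measured on Agilent mouse miRNA arrays in 1 colour (Cy3) from 100 ng of RNA, with each array's group read from its title. The authors scanned the arrays with Agilent software. Feature Extraction 10.7 is named in the submitters' processing notes, and the file headers name a later release. The deposited scanner files hold background-subtracted spot intensity (linear), not scaled between arrays. The deposited table of the series holds log2 values that the authors made in GeneSpring GX, with settings not given in the sources used here. It served only as an alternative.

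Control spots and spots marked as outliers were left out (2.40% and 2.23% of the members' spots), and the remaining 7 to 15 spots of each member probe were averaged. On the arrays 23.3% (LLC) and 11.5% (MSC+LLC) of all miRNA spots were well above background, and no spot was saturated. Detection required well above background on over 50% of a probe's spots. The 75th percentile over probes detected on the 2 arrays served as the divisor. Log2 ratios (MSC+LLC over LLC) were averaged over the probes detected on both arrays, and bounds were taken for miRNAs detected on 1 array. Calls used 2-fold. Shares have Clopper-Pearson intervals at 95%. Precision is limited by 1 array per group.

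The members, lists and rules were chosen with earlier results of these data known. Named were every member detected on both arrays or on the MSC+LLC array alone, the 10 brightest detected on the LLC array alone (6 existed), miR-6995-3p, and their 5p partners. Marker lists for erythroid, hepatocyte, leukocyte and platelet, and mesenchymal stromal miRNAs were also counted. Mature sequences, hairpins and gene bounds came from RefSeq tables of GRCm38.p6, matched by miRNA name, while the file headers name another build. Sequence entries on a chromosome that was left out were not matched. No coordinate was converted. The host gene and position of miR-7047 are not reported here. The functions were tested on simulated data. Alternatives were other scalings, detection rules, spot and probe summaries, normexp background correction (offset 50) and the deposited values. Fold thresholds of 4 and 1.5 were also tried. Python 3.11.15, numpy 2.4.6, pandas 2.3.3, scipy 1.17.1, matplotlib 3.10.9, and for normexp limma 3.58.1 in R 4.3.3, were used.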

Additional observations from a re-analysis of the deposited data

How the results depend on the processing

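No paired analysis was possible because 1 array stands for each group. The number of members detected depended on the rule. On the LLC array it was 8, and 17 with the detection flag of the software and 40 with positive and significant spots. Over all miRNAs these 2 rules gave 31.7% and 43.8%. On the MSC+LLC array it was 5, and 9 with the flag and 40 with positive and significant spots, beside 16.5% and 27.7% of all miRNAs. With over 75% of spots it was 3 there. The share of all miRNAs that passed that rule on the MSC+LLC array was not counted. Of the 1881 miRNAs, 228 were measured on both arrays by that rule and 499 passed it on either array. By positive and significant spots the 5p partners went from 75 to 125 in LLC and from 23 to 52 in MSC+LLC.

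The direction of the ratios rested on the scaling. The median log2 ratio of the measured members (3.00) was 1.79 with the 75th percentile of all probes, 2.31 with quantile normalization, 3.44 with the summed signal, 0.79 with labelling spike-ins, 0.11 when all 4 spike-ins were used, -0.56 with the hybridization spike-ins and -0.53 without scaling. For miR-7082-3p (2.16) the last 4 settings gave -0.047, -0.72, -1.40 and -1.36, and miR-6923-3p stayed above 0 throughout, from 0.27 to 4.52. Members at least 2-fold higher (2) numbered 0 with all spike-ins, hybridization spike-ins or no scaling, beside 11, 8 and 8 of 240 miRNAs. With over 75% of spots they also numbered 0, beside 62 of 228. With labelling spike-ins or the 75th percentile of all probes they numbered 1, beside 15 and 27 of 240. The flag gave 8 and positive and significant spots gave 25, beside 87 of 295 and 181 of 480 miRNAs. Those lower (0) numbered 1 with the hybridization spike-ins and 1 without scaling, beside 217 of 240 in each. With bounds, the 5 higher became 0 with all spike-ins, hybridization spike-ins or no scaling, beside 19, 11 and 11 of 520. They became 3 with over 75% of spots, 9 with the flag and 38 with positive and significant spots. Over all miRNAs these 3 rules gave 80 of 499, 103 of 612 and 220 of 862. With the same 3 scalings the 0 lower became 1, 5 and 4, beside 314, 396 and 388 of 520. The cause was not tested.

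Over all miRNAs, 70.7% of the 2-fold calls were higher in MSC+LLC, and 91.7% with normexp correction, 59.0% with quantile normalization, 54.6% with the deposited values, 17.5% with the 75th percentile of all probes, 5.12% with all spike-ins, 7.69% with the labelling ones and 3.56% with hybridization spike-ins or no scaling. Signals of the members were near the background, which limits every level given.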

Other observations

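Mirtrons named before this run of numbers were also on the array, and the brightest signal among them came from a 5p arm. The probe signals of their 3p arms ran from 0.077 to 45.8 in LLC, beside -5.29 to 64.7 for the members. In MSC+LLC they ran from 2.67 to 64.2, beside -4.41 to 27.1. A probe of miR-877-3p read 45.8 ± 6.65 (SD over spots, n = 7) in LLC and 64.2 ± 8.57 (n = 7) in MSC+LLC. Averaged over its probes detected on both arrays, miR-877-3p had a log2 ratio of 4.09 after scaling and 0.57 before it. Its 5p arm was detected on the LLC array alone, at 90.3 ± 5.63 against 16.3 ± 2.77. miR-1224-5p was far brighter, with a probe at 22833 ± 1402 in LLC and 2682 ± 91.3 in MSC+LLC. Its scaled log2 ratio, averaged in the same way, was 0.28, while miR-1224-3p was detected on neither array. Neither arm of miR-702 was detected, with miR-702-3p at 13.2 and 3.32.

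In the table of log2 values that the authors deposited, 181 of the 199 members sat at the lowest value of both columns, -10.34 for LLC and -6.80 for MSC+LLC. Because these constants differ by 3.54, a member undetected on both arrays has a difference of that size in the table. Over all 1902 rows the median of each column was also this lowest value. Of the members above it, 8 were so on both arrays, 9 on the LLC array alone and 1 on the MSC+LLC array alone. The matching shares over all rows were not counted. A member above it on 1 array is compared with a constant, so no fold call is read from these values.

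The spike-in RNAs added at hybridization had a log2 ratio of 0.038 between the arrays, and those added at labelling had -1.32.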
